A study of Mus musculus with 5 samples.

Results

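The genes examined here encode 10 enzymes of glycolysis in the mouse retina, from glucose phosphorylation to lactate: the hexokinases Hk1 and Hk2, the phosphofructokinases Pfkl, Pfkm and Pfkp, the aldolases Aldoa and Aldoc, and Gapdh, Pkm and Ldha. They were found by gene name among the 33635 genes of the count table, and each of the 10 names had a single row. Levels are given in CPM, the estimated counts of a gene scaled to a common library total after TMM scaling, which evens out differences in composition between libraries.

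The retinas came from male wild-type C57BL/6J mice aged P42. A diffuser goggle had covered the right eye from P28, for 2 weeks, to induce form-deprivation myopia (FDM), in which a blurred image drives the young eye towards myopia, and the left eye of each mouse was left uncovered as a contralateral control. PolyA RNA was sequenced, and 5 libraries were available, 2 from FDM eyes (FDM 1 and FDM 3) and 3 from control eyes (Control 1, Control 2 and Control 3). The control eyes belonged to goggled animals, so no eye of an untreated mouse was compared.

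The number of the second FDM library differed between the sources. The sample title gives it the number 2 and the count table the number 3, and the number of the table is used as its name here. FDM 1 and Control 1 carry the same number in both sources, while FDM 3 is paired with Control 3 by the table and with Control 2 by the title. Both pairings are therefore given, and the refractive errors of the eyes were not used to choose between them.

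Glycolysis splits glucose into pyruvate, with a small yield of ATP. Hexokinase traps glucose in the cell, phosphofructokinase makes the committed and most tightly regulated step, aldolase splits the sugar, GAPDH reduces NAD, pyruvate kinase makes pyruvate, and lactate dehydrogenase converts pyruvate to lactate and restores NAD. The retina is known for aerobic glycolysis, the conversion of most glucose to lactate even when oxygen is present, and photoreceptors, which contain hexokinase 2 and the M2 form of pyruvate kinase, are thought to be the main site.

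Promoter sequences are shown for 3 of the enzymes, Hk2, Pfkp and Ldha, because Hk2 varied most among the libraries, Pfkp was the enzyme whose order of libraries in CPM differed from the others, and Ldha varied least. Each is the 250 bases before a RefSeq transcription start on GRCm38.p6, read 5′ to 3′ on the strand of the gene. Capitals mark the letters ACGTG or GCGTG, the core of hypoxia response elements, or their reverse complements CACGT and CACGC. The palindrome CACGTG, an E-box, holds the first motif on both strands and was counted once per strand.
Hk2 (chr6:82774455-82774704, minus strand): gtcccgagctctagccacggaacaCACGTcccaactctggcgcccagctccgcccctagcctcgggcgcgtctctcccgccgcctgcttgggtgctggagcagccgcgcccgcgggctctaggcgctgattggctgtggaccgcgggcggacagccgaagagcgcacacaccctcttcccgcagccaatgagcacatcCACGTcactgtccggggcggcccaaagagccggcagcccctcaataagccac
Pfkp (chr13:6648772-6649021, minus strand): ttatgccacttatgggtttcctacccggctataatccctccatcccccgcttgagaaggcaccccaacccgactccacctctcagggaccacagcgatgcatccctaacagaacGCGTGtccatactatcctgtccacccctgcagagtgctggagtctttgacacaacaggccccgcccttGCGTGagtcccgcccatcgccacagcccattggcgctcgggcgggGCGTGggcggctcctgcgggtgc
Ldha (chr7:46845554-46845803, plus strand): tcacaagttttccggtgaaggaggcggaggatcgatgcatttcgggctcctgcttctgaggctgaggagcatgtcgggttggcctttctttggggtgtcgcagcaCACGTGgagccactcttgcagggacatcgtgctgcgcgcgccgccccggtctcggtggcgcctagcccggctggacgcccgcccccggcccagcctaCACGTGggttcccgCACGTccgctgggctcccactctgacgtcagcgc

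The Ldha window shown held 5 matches, the Pfkp window 3 and the Hk2 window 2. Another Ldha window held 1. Over the 10 enzymes, RefSeq gave 19 such windows, of which 15 held at least 1 match, or 78.9%, against 38.6% of the 32851 windows of all genes. Windows of a gene can overlap, as for Aldoa and Pfkm, and a match in the overlap counts in each. By gene, 10 of the 10 enzymes held a match in at least 1 window, against 41.5% of 27025 genes. A gene with several windows has more chances of a match. The windows of the enzymes were also richer in G and C, with a median of 59.2% against 52.4% over all windows, and the part of this in the count of matches was not tested. A match says only that these letters are present.

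The 5 libraries held between 40599047 and 56534931 estimated counts. The 10 enzymes together took between 1.21% of a library, in Control 2, and 1.38%, in Control 3. A detection limit of 3 counts per library came to at most 0.0739 CPM, far below each enzyme in each library. This limit covers counting error only. Markers of retinal cells were present in all libraries, with a summed level of 1298 to 1462 CPM for 6 cone photoreceptor markers, of 3537 to 3870 CPM for 6 markers of Müller glia and of 593 to 758 CPM for 5 ganglion cell markers. Other tissues differed between libraries. The 14 lens markers in the table summed to 2088 CPM in FDM 3 and to between 4.18 and 32.7 CPM elsewhere, the 8 markers of the retinal pigment epithelium (RPE) to 248 and 217 CPM in Control 2 and Control 3 and to between 56.0 and 72.1 CPM elsewhere, and the 10 skeletal muscle markers to 84.7 CPM in Control 3 against between 10.3 and 11.7 CPM. The 5 red blood cell markers summed to between 33.0 and 47.6 CPM in the 5 libraries. In edgeR, 11 of the 13 lens markers tested were higher and 5 of the 8 RPE markers lower in FDM eyes at the unadjusted threshold, with 0 calls in the muscle and blood lists.

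The first question was how abundant the enzymes were relative to each other, which needs levels per length. In CPM per kb of exon (the union of all annotated exons), Aldoa stood first at 806 ± 54.4 (SD, n = 5 libraries, both groups), followed by Pkm at 747 ± 54.2 and Gapdh at 640 ± 48.5. These 3 neighbours overlapped in their library ranges. The Gapdh level leaves out near-identical copies of its transcript, described below, whose counts equalled 30.4% to 38.2% of its own. The order of these 3 with the copies added was not computed. Ldha followed at 348 ± 13.1 CPM per kb, Aldoc at 147 ± 9.84 and Hk1 at 103 ± 11.6, each apart from its neighbours. Pfkl (68.2 ± 5.55), Hk2 (68.0 ± 12.6), Pfkp (63.5 ± 5.82) and Pfkm (61.0 ± 3.08) came last, and the ranges of these neighbours overlapped.

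The hexokinases and phosphofructokinases, which open the pathway, were thus the least abundant of the 10. The highest level lay 13.2-fold above the lowest, with the copies of Gapdh left out. When the longest transcript was taken as the length instead, this span was 21.7-fold, Pkm stood above Aldoa, Hk1 above Aldoc and Pfkp above Hk2, while Pfkm remained last. Among the glycolytic enzymes outside the 10, Eno1 (enolase, 505 ± 25.8 CPM per kb) and Pgam1 (phosphoglycerate mutase, 437 ± 31.1) lay between Gapdh and Ldha. Pgk1 (phosphoglycerate kinase, 285 ± 13.1), Tpi1 (triosephosphate isomerase, 255 ± 17.6) and Gpi1 (glucose-6-phosphate isomerase, 172 ± 8.25) lay between Ldha and Aldoc.

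FDM and control eyes were then compared for each enzyme. In edgeR's quasi-likelihood test over the 17432 genes that passed the count filter, 0 of the 10 enzymes had an unadjusted p under 0.05, beside 1.61% of all genes tested (281 genes, 79 of them higher and 202 lower in FDM eyes). DESeq2 and limma also called 0 of the 10 at this threshold. The p of the enzymes ran from 0.339 for Hk2 to 0.989 for Pkm in edgeR, and the adjusted p was 1.0 for each. After adjustment edgeR without a block called 0 of all genes tested and DESeq2 called 3. With the eye pairs as a block, edgeR called 54 genes (numbers of the count table) or 128 (numbers of the titles) after adjustment. The lowest adjusted p of the 10 enzymes in these block fits was 0.499, for Pfkp. In CPM the libraries of the 2 groups overlapped for each of the 10, while they did not overlap for 10.6% of the genes tested. In the deposited normalized counts they overlapped for each except Pfkp. The log2 fold change was above 0 for 6 enzymes and below 0 for 4, with a median of 0.00, beside -0.01 over all genes tested. Where no block is named, the p-values measure the spread between these few eyes.

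The data limited a difference more closely for some enzymes than for others. The 95% intervals of the change from control to FDM eyes reached from -19.7% (the lower bound for Gapdh) to 52.9% (the upper bound for Hk2). The narrowest interval belonged to Ldha, from -14.4% to 13.3%. In retinal tissue, fewer cells of a type and less RNA per cell cannot be told apart.

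**Figure D1:**
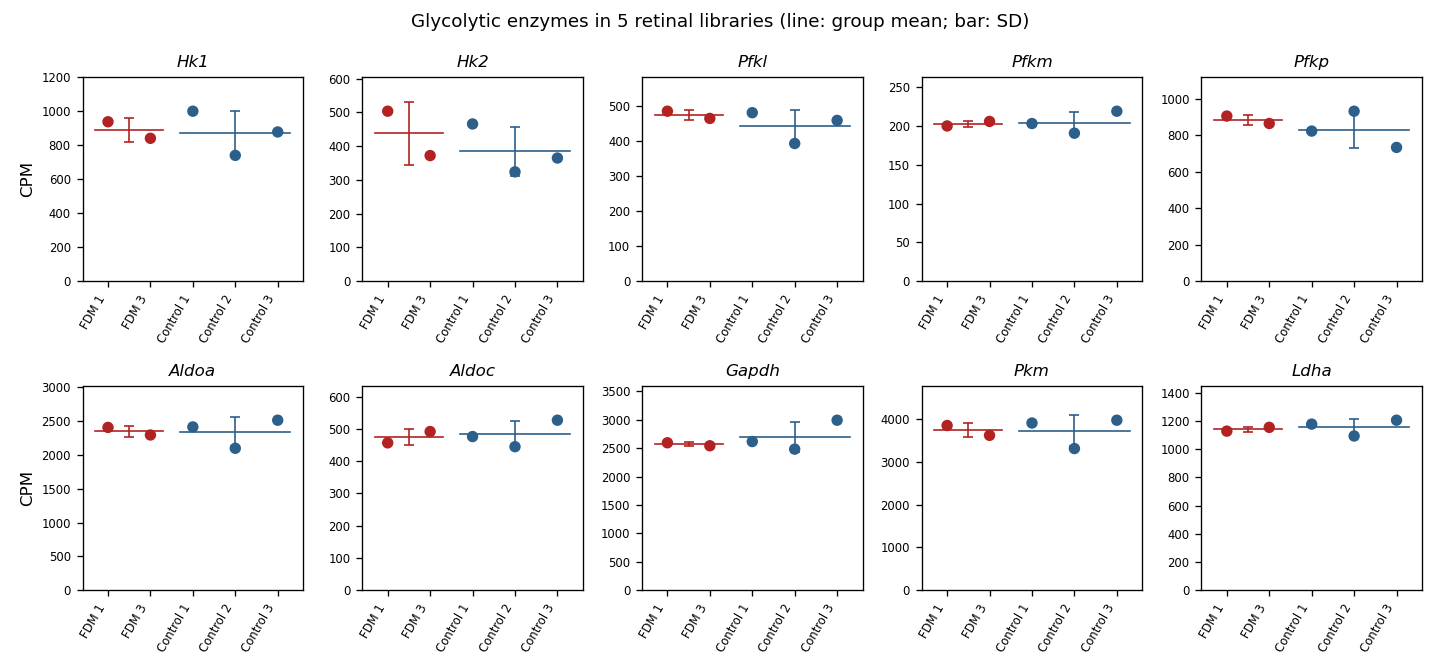
Level of each enzyme in CPM (vertical axes, linear and starting at 0) in the 2 FDM libraries (red points) and 3 control libraries (blue points), with the group mean (line) and SD (bar). The points of the groups overlap in all 10 panels, and Control 2 is the lowest library in each panel except that of Pfkp.

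Hexokinase 1 (Hk1; chromosome 10, 62268855 to 62379908 on GRCm38, minus strand) is the housekeeping hexokinase of most tissues. It measured 939 CPM in FDM 1 and 842 in FDM 3, against 1001, 741 and 879 in Control 1, Control 2 and Control 3. The highest and the lowest library were both control eyes. FDM eyes averaged 890 ± 68.9 CPM (SD, n = 2) and control eyes 874 ± 130 CPM (SD, n = 3), a log2 fold change of 0.03 (SE 0.135, 95% interval -0.29 to 0.34).

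Hexokinase 2 (Hk2; chromosome 6, 82725025 to 82774454, minus strand), the isozyme found in photoreceptors, varied most. Its level was 504 CPM in FDM 1 and 372 in FDM 3, against 466, 324 and 365 in Control 1, Control 2 and Control 3. The 2 libraries numbered 1 stood above the other 3. FDM eyes averaged 438 ± 93.0 CPM (SD, n = 2) and control eyes 385 ± 73.0 CPM (SD, n = 3), and the log2 fold change of 0.19 (SE 0.182, 95% interval -0.24 to 0.61) was the largest of the 10. Its SD within groups, 0.282 on the log2 scale, exceeded that of 98.1% of the 2210 genes with a mean of at least 100 CPM.

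The spread of Hk2 was wider, and its order of libraries different, in the deposited normalized counts, in which the divisor differs between the genes of a library. Relative to the median gene of the library, the divisor of Hk2 was 1.02 in FDM 1 and 1.08 in FDM 3, against 0.898, 1.07 and 0.943 in Control 1, Control 2 and Control 3. The ratio of the highest to the lowest divisor, 1.205, exceeded that of 96.0% of 7559 well measured genes. In the normalized counts Hk2 measured 23269 in FDM 1 and 16147 in FDM 3, against 24075, 14184 and 18143 in Control 1, Control 2 and Control 3, so that Control 1 rather than FDM 1 was the highest. The highest library exceeded the lowest 1.697-fold in the normalized counts and 1.555-fold in CPM. With these divisors as offsets the log2 fold change of Hk2 in edgeR was 0.07 (unadjusted p = 0.779).

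The liver-type phosphofructokinase (Pfkl; chromosome 10, 77986947 to 78010083, minus strand) measured 484 CPM in FDM 1 and 463 in FDM 3, against 480, 392 and 458 in Control 1, Control 2 and Control 3. Apart from the low Control 2, the libraries lay close together. The log2 fold change was 0.10 (SE 0.106, 95% interval -0.15 to 0.34).

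The muscle-type subunit (Pfkm; chromosome 15, 98092589 to 98132451, plus strand) measured 200.0 CPM in FDM 1 and 206 in FDM 3, against 203, 191 and 219 in Control 1, Control 2 and Control 3. Both FDM libraries lay within the range of the control libraries, and the log2 fold change was -0.01 (SE 0.0897, 95% interval -0.22 to 0.20). The higher skeletal muscle marker level in Control 3 stood beside the highest Pfkm value, and its part in that value was not tested.

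The platelet-type subunit (Pfkp; chromosome 13, 6579768 to 6648777, minus strand) differed from the other 9 enzymes in its highest and lowest library in CPM. It measured 905 CPM in FDM 1 and 864 in FDM 3, against 823, 932 and 733 in Control 1, Control 2 and Control 3. Control 2, the lowest library for the other 9 enzymes, was the highest for Pfkp in CPM, and Control 3 was the lowest. FDM eyes averaged 885 ± 28.9 CPM (SD, n = 2) and control eyes 829 ± 99.4 CPM (SD, n = 3), a log2 fold change of 0.09 (SE 0.114, 95% interval -0.18 to 0.36). The place of Control 2 depended on the normalization. The divisor of Pfkp relative to the median gene was 1.09 in Control 2 and 0.943 in Control 3, and the ratio of the highest to the lowest, 1.155, exceeded that of 92.1% of the 7559 genes. In the normalized counts Pfkp measured 41960 in FDM 1 and 40468 in FDM 3, against 39790, 40225 and 36481 in Control 1, Control 2 and Control 3. Both FDM libraries then lay above all control libraries, the 1 enzyme of the 10 whose groups did not overlap, where 12.5% of all genes tested did not. With the divisors as offsets its log2 fold change in edgeR was 0.09 (unadjusted p = 0.337).

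Aldolase A (Aldoa; chromosome 7, 126795234 to 126800751, minus strand), the widely expressed isozyme, measured 2406 CPM in FDM 1 and 2295 in FDM 3, against 2413, 2098 and 2513 in Control 1, Control 2 and Control 3. The FDM libraries lay inside the control range, with a log2 fold change of 0.01 (SE 0.104, 95% interval -0.24 to 0.25). Fam57b lies across Aldoa on the opposite strand and had 66135 to 69521 counts per library. The library kit does not mark strand, so reads of the stretch that both genes share cannot be told apart by strand.

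Aldolase C (Aldoc; chromosome 11, 78322968 to 78327781, plus strand), the isozyme of nervous tissue, measured 456 CPM in FDM 1 and 491 in FDM 3, against 476, 445 and 527 in Control 1, Control 2 and Control 3. The lowest and highest values again came from control eyes, and the log2 fold change was -0.03 (SE 0.0996, 95% interval -0.26 to 0.21).

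Pyruvate kinase (Pkm; chromosome 9, 59656368 to 59679375, plus strand) makes pyruvate and ATP. It measured 3854 CPM in FDM 1 and 3625 in FDM 3, against 3913, 3315 and 3979 in Control 1, Control 2 and Control 3. The group means of 3740 ± 163 CPM (SD, n = 2) and 3736 ± 366 CPM (SD, n = 3) were nearly equal, with a log2 fold change of 0.00 (SE 0.108, 95% interval -0.25 to 0.26). The gene count sums the M1 and M2 splice forms, which were not separated here.

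Lactate dehydrogenase A (Ldha; chromosome 7, 46841475 to 46855627, plus strand), the subunit that favours lactate formation, was the steadiest. It measured 1128 CPM in FDM 1 and 1155 in FDM 3, against 1178, 1094 and 1206 in Control 1, Control 2 and Control 3. The 5 values lay close together, and the SD within groups was smaller than that of most genes, exceeding only 18.4% of the genes of at least 100 CPM. The log2 fold change was -0.02 (SE 0.0861, 95% interval -0.22 to 0.18).

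Gapdh (chromosome 6, 125161715 to 125166467, minus strand) is often used as a reference gene. It measured 2594 CPM in FDM 1 and 2542 in FDM 3, against 2616, 2482 and 2991 in Control 1, Control 2 and Control 3. Control 3 stood above the other libraries. FDM eyes averaged 2568 ± 37.3 CPM (SD, n = 2) and control eyes 2696 ± 264 CPM (SD, n = 3), and the log2 fold change of -0.07 (SE 0.105, 95% interval -0.32 to 0.18) was the lowest of the 10.

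The count of Gapdh is less certain than the others because the mouse genome holds many copies of its transcript. The annotation has 176 copies with at least 90% identity, of which 171 are in the count table. Among them, 35 match over at least 500 bases with at least 98% identity, and their counts equalled between 30.4% (Control 2) and 38.2% (FDM 3) of those of Gapdh itself. To show how little separates them, 51 bases of the Gapdh coding sequence and of its copies are given, around the base at which a copy differs. The capitals mark that base, positions count from 1 at the A of the start codon, and the sequences are from GENCODE M21 transcripts, coding strand.
Gapdh: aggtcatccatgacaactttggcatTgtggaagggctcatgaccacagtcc
Gm7336: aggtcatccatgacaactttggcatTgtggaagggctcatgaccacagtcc
Gm10359: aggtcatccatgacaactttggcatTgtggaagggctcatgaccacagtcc
Gm12033: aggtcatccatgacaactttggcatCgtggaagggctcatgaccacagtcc

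Gm7336 (chromosome 7, 51746647 to 51747878) and Gm10359 (chromosome 5, 105862701 to 105863702) had 0 differences from the 1002 coding bases of Gapdh, so no read inside the coding sequence can separate them. Gm12033 (chromosome 11, 20335012 to 20336013) differed at 1 base, T504C, and Gm12070 (chromosome 11, 26786633 to 26787634) at 1 base, G361A. Of the 953 windows of 50 bases along the coding sequence, 94.8% hold no difference between Gapdh and Gm12033, and the same share holds none between Gapdh and Gm12070.

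In Gm7336 the count was 28969 in FDM 1 and 40271 in FDM 3, against 29899, 34538 and 38306 in Control 1, Control 2 and Control 3. Its share was largest beside Gapdh in FDM 3. In Gm12033 the count was 0 in FDM 1 and 0 in FDM 3, against 61, 58 and 19 in Control 1, Control 2 and Control 3. These groups did not overlap, and edgeR gave Gm12033 an unadjusted p of 7.5e-04 (adjusted p = 1.0, and 0.00613 with the eye pairs of the table as a block), but its identity with Gapdh over nearly every read length makes these counts uncertain. Summed with its 35 near-identical copies, Gapdh reached 3446 CPM in FDM 1 and 3512 in FDM 3, against 3518, 3236 and 4027 in Control 1, Control 2 and Control 3. The log2 fold change of the sum was -0.05 (SE 0.111, 95% interval -0.31 to 0.21), beside -0.07 for Gapdh alone. The copies of the other enzymes held at most 0.496% of their counts, a share reached by the copy of Pfkl.

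**Figure D2:**
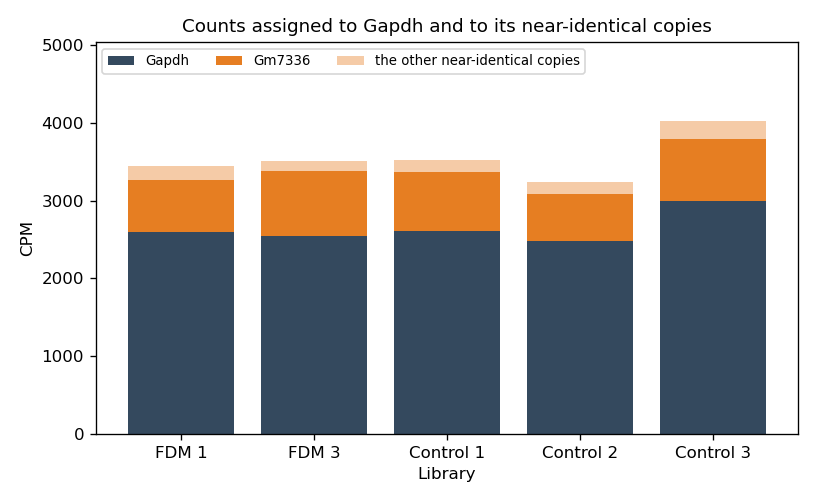
CPM assigned to Gapdh (dark), to the copy Gm7336 (orange) and to the other near-identical copies (pale) in each library, stacked from 0. The full height runs from 3236 CPM in Control 2 to 4027 CPM in Control 3, and Gapdh itself is the larger part in each library.

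Isozymes of a family were also compared within a library, where the scaling of the library cancels. Shares were taken from levels per kb of exon. Hk2 made up 43.4% of the 2 hexokinases in FDM 1 and 38.7% in FDM 3, against 39.9%, 38.5% and 37.2% in Control 1, Control 2 and Control 3. FDM 1 stood above the rest, and the group means were 41.1 ± 3.30% (SD, n = 2) and 38.5 ± 1.35% (SD, n = 3; exact two-sided permutation test, p = 0.4). With 2 against 3 libraries, the smallest p that this exact test allows is 0.2, so it cannot pass 0.05.

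The 3 phosphofructokinases had near-equal shares with the exon length. Pfkl held 35.9 ± 0.539% in FDM eyes and 35.0 ± 2.90% in control eyes, Pfkm 30.7 ± 1.104% and 32.3 ± 2.12%, and Pfkp 33.4 ± 0.565% and 32.7 ± 4.37% (SD, n = 2 and 3; exact permutation p between 0.6 and 1). The control eyes spread most, since Pfkp held 37.5% in Control 2 but 29.0% in Control 3. In the normalized counts, whose divisors differ between genes, Pfkp held 33.4 ± 0.241% in FDM eyes and 32.6 ± 2.29% in control eyes. Aldoc held 15.3 ± 1.11% of the 2 aldolases in FDM eyes and 15.5 ± 0.504% in control eyes. Ldhb, the heart-type lactate dehydrogenase subunit, held 20.98 ± 0.424% beside Ldha in FDM eyes and 21.5 ± 1.81% in control eyes (exact permutation p = 0.8 for both). Adjusted over the 6 shares by Benjamini-Hochberg, these p-values were 0.96 to 1. The shares themselves depended on the length. With the longest transcript, the mean over the 5 libraries was 41.9% for Pfkl, 33.7% for Pfkp and 24.3% for Pfkm, and it was 26.2% for Hk2, 10.2% for Aldoc and 15.2% for Ldhb.

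Across the libraries, all enzymes except Pfkp were lowest in Control 2, while the order of the other libraries differed between enzymes. Each enzyme's log2 CPM was centred on its own mean over the 5 libraries, and the median of the 10 centred values was 0.04 in FDM 1 and -0.01 in FDM 3, against 0.04, -0.13 and 0.08 in Control 1, Control 2 and Control 3. Control 2 was below the mean for 9 of the 10, and Control 3 above it for 8. The share of all genes that did the same was not computed. The summed level of the 10 was 13472 CPM in FDM 1 and 12855 in FDM 3, against 13569, 12014 and 13870 in Control 1, Control 2 and Control 3, with a mean of 13163 ± 436 over FDM eyes (SD, n = 2) and of 13151 ± 996 over control eyes (SD, n = 3).

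**Figure D3:**
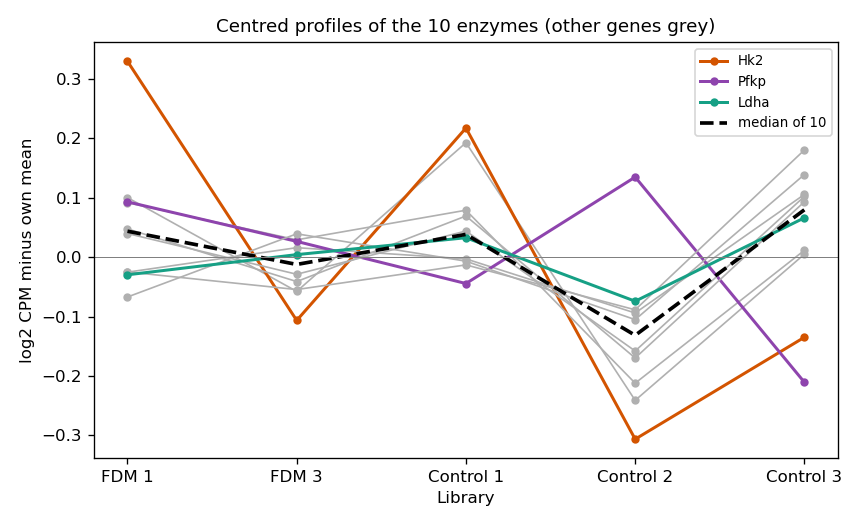
Log2 CPM of each enzyme minus its own mean (vertical axis) in the 5 libraries (horizontal axis), with Hk2, Pfkp and Ldha in colour, the other 7 in grey and the median of the 10 dashed. The median dips to -0.13 in Control 2, where Pfkp alone is above its mean.

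The 5 genes outside the gene lists whose centred values came nearest to this median profile were Cdhr1, Guk1, Rab11b, Mid1ip1 and Trnau1ap. Their root mean square difference from it was between 0.0087 and 0.0137 on the log2 scale over the 5 libraries, beside a median of 0.105 over 10506 candidate genes of at least 10 CPM. Cdhr1, which encodes a cadherin of photoreceptor outer segments, was at 957 CPM on average.

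The eye pairs gave differences between eyes taken, by their number, to come from 1 animal. In FDM 1 minus Control 1, which both sources pair, the log2 differences of the 10 enzymes ran from -0.09 (Hk1) to 0.14 (Pfkp), with a median of -0.02. In FDM 3 minus Control 3, the pair of the count table, they ran from -0.24 (Gapdh) to 0.24 (Pfkp), with a median of -0.08. Some differences were near 0, such as -0.004 for Aldoa, -0.01 for Gapdh and 0.01 for Pfkl in the pair numbered 1. In FDM 3 minus Control 3, Pfkl was at 0.02 and Hk2 at 0.03. In these 2 pairs the FDM eye was higher for Hk2, Pfkl and Pfkp and lower for the other 7. All 10 enzymes thus had the same direction, while 60.2% of the 2210 genes of at least 100 CPM did so. In the normalized counts 8 of the 10 agreed, beside 57.1% of these genes, and Hk2 was lower in both FDM eyes, by -0.05 and -0.17. Pfkl and Gapdh then differed in direction between the pairs, while Pfkp remained higher in both, by 0.08 and 0.15.

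With the numbers of the titles, FDM 3 minus Control 2 ran from -0.11 (Pfkp) to 0.24 (Pfkl), with a median of 0.13 and 9 of 10 enzymes above 0. Only Hk2 and Pfkl, 2 of the 10, then had the same direction in both pairs, and 20.1% of the genes of at least 100 CPM did. In the normalized counts Pfkp and Gapdh agreed instead, beside 23.5% of these genes, and Pfkp in FDM 3 minus Control 2 was 0.01 rather than -0.11. The direction of most enzymes in the second pair thus depended on which control eye was taken as the partner. Control 2 was low and Control 3 high for most of them.

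**Figure D4:**
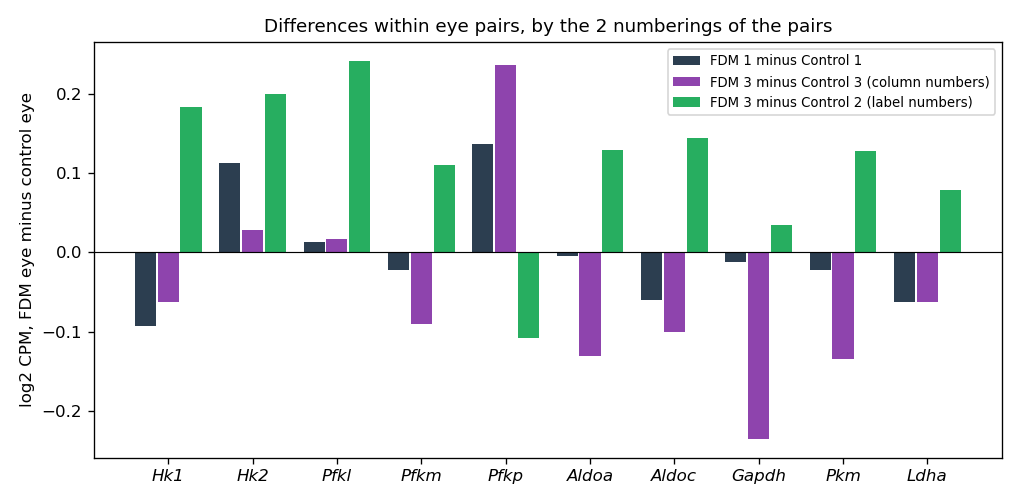
Difference in log2 CPM between the FDM and the control eye (vertical axis) for each enzyme, in the pair numbered 1 (dark) and in the second pair by the numbers of the count table (purple) and of the sample titles (green). Dark and purple bars point the same way for all 10 enzymes, and green bars are above 0 for all but Pfkp.

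Pfkp was the 1 enzyme whose call changed with the pairing. It was higher in the FDM eye by 0.14 in the pair numbered 1 and by 0.24 in the pair of the count table. With these pairs as a block in edgeR, its log2 fold change was 0.19 (SE 0.0530, unadjusted p = 0.00644, adjusted p = 0.499), the 1 call among the 10 enzymes, where 7.23% of all genes tested were called. With the block of the titles it was 0.01 (unadjusted p = 0.903 in edgeR), and 0 of the 10 were called beside 2.52% of all genes. Without Control 2 it was 0.20 (unadjusted p = 0.0389, adjusted p = 1.0 in edgeR), the 1 call among the 10, beside 3.11% of all genes. Control 2 stands alone in the block of the count table. That block and the fit without Control 2 therefore take the difference from the same libraries and are not separate results. The RPE marker sum was high in both Control 2 and Control 3, where Pfkp was highest and lowest, and its part in these values was not tested.

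**Figure D5:**
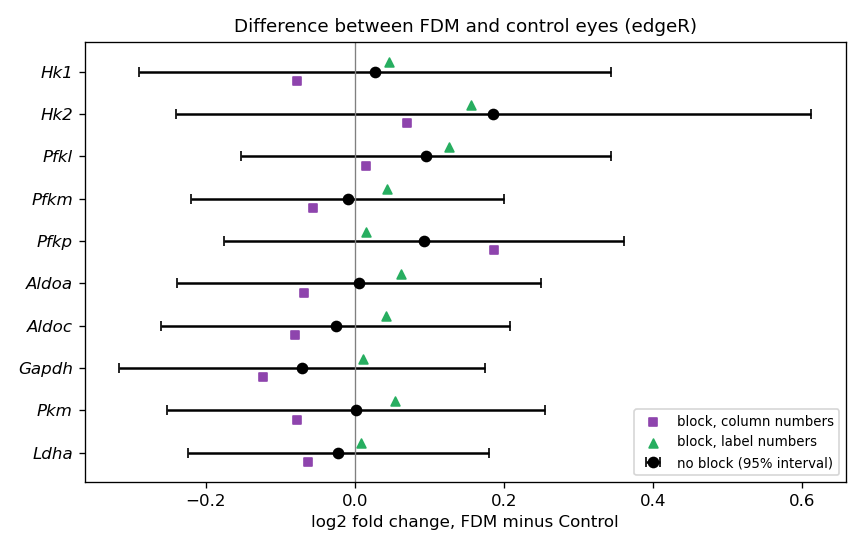
Log2 fold change of FDM minus control eyes (horizontal axis) for each enzyme from edgeR, without a block (black points with 95% intervals) and with the eye pairs as a block by the numbers of the count table (purple squares) or of the titles (green triangles). All 10 intervals include 0, and the squares of 7 enzymes lie below 0 while all triangles lie above it.

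The neighbouring pathways were measured in the same fit, in lists of 53 genes of which 49 passed the count filter. In edgeR, 0 were higher in FDM eyes, beside 0.453% of all genes, and 2 were lower, beside 1.16% (0 after adjustment). DESeq2 called 1 of the 49, Slc16a8. Among the 16 other glycolytic enzymes tested 0 were called, with log2 fold changes of 0.00 for Gpi1, -0.03 for Tpi1, -0.01 for Pgk1, 0.05 for Pgam1, -0.04 for Eno1, -0.01 for Eno2 and -0.07 for Ldhb. The 5 regulators of phosphofructokinase tested and the 7 genes of the pentose phosphate pathway, which draws glucose-6-phosphate off glycolysis, also had 0 calls.

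Of the 8 genes of glucose and lactate transport, 1 was lower, Slc16a8, the lactate exporter MCT3 of the retinal pigment epithelium. It measured 4.43 CPM in FDM 1 and 3.70 in FDM 3, against 4.38, 9.75 and 8.78 in Control 1, Control 2 and Control 3. The groups overlapped, because Control 1 was as low as the FDM eyes. Its log2 fold change was -0.92 (SE 0.323, unadjusted p = 0.0242, adjusted p = 1.0 in edgeR), and the p was between 0.0670 and 0.0921 when FDM 3, Control 2 or Control 3 was left out. The RPE marker sum was 66.6, 56.0, 72.1, 248 and 217 CPM in the same order of libraries, high in the 2 libraries in which Slc16a8 was high, and 5 of its 8 markers were also lower in FDM eyes. The part of RPE tissue in the Slc16a8 value was not tested. Slc2a1, the main glucose transporter of the retina, measured 214 and 212 CPM in FDM 1 and FDM 3 and 222, 224 and 241 CPM in Control 1, Control 2 and Control 3. Both FDM libraries lay below the control libraries, but the log2 fold change of -0.10 did not pass the test (SE 0.0816, unadjusted p = 0.240 in edgeR). Groups did not overlap, in either direction, for 10.6% of all genes tested. Among the other pathway genes, both FDM libraries lay below the controls for Pdk4, described below, and G6pdx, and above them for Pklr and Pfkfb1. The monocarboxylate transporter Slc16a1 (-0.14), which carries lactate out of or into cells, and its chaperone Bsg (-0.07) did not pass either.

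Of the 13 genes that lead pyruvate into mitochondria, 1 was lower, Pdk4, a kinase that switches off pyruvate dehydrogenase. It was scarce, at 0.969 CPM in FDM 1 and 0.873 in FDM 3. Control 1, Control 2 and Control 3 measured 1.33, 1.12 and 1.64 CPM. Both FDM libraries lay below the control libraries for Pdk4, where the groups of 10.6% of all genes tested did not overlap. Its log2 fold change was -0.56 (SE 0.237, unadjusted p = 0.0481, adjusted p = 1.0 in edgeR), and DESeq2 gave an unadjusted p of 0.123. The call was lost under 10 of the 17 alternatives, among them RLE factors (unadjusted p of 0.0505 in edgeR), the authors' factors, limma, the block of the titles (0.167 in edgeR) and each library left out except Control 2 (0.0676 to 0.193 in edgeR). Mpc1, of the mitochondrial pyruvate carrier, had a log2 fold change of -0.04, Pdha1, of pyruvate dehydrogenase, -0.04, and the kinases Pdk1, Pdk2 and Pdk3 0.13, 0.00 and -0.06, without a call. With the eye pairs of the count table as a block, 6 of the 49 pathway genes were called, beside 7.23% of all genes tested. With the numbers of the titles 1 was called, beside 2.52% of all genes tested.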

How the data were processed

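Retinal polyA RNA was sequenced in 2 FDM and 3 control eyes, grouped by the sample labels. The authors trimmed the reads with Trimmomatic 0.39, quantified transcripts on GRCm38 with Salmon 1.10.1 and deposited estimated counts per gene as whole numbers. They left out 1 FDM library for read duplication. The authors also deposited a signal of DESeq2-normalized counts, whose ratio to the estimated counts differs from gene to gene within a library.

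The 10 enzymes and all gene lists were chosen with earlier results of these data known. For testing, a gene needed over 10 counts in 2 or more libraries, which left 17432 of 33635. The test was that of edgeR 4.0.16 under R 4.3.3 (TMM, quasi-likelihood test, no covariate) at an unadjusted p of 0.05. The study states this threshold, and it states the filter for its meta-analysis. P-values were adjusted by Benjamini-Hochberg over all genes tested. The script was tested on simulated data. Besides the enzymes, genes were named by a rule: the main isozymes, transporters and pyruvate regulators of the lists, list genes past the threshold, and the 5 nearest profiles. Gm7336, Gm10359, Gm12033, Gm12070, G6pdx, Pklr and Pfkfb1 were named after their counts had been seen.

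Eyes of equal number were taken as those of 1 animal, which the sample titles and column names do not state. Over the genes, which do not count as independent, the deviations from the group means correlated at 0.252 for FDM 1 and Control 1, at 0.134 for FDM 3 and Control 3 and at 0.143 for FDM 3 and Control 2. With 2 FDM libraries their deviations are opposite in sign. The last 2 values are therefore tied to the first, and they are no separate support for either second pairing. Coordinates, lengths and copies (BLAST 2.17.0) were taken from GENCODE M21 on GRCm38, and promoters from RefSeq. Alternatives used DESeq2 1.42.0, limma 3.58.1 (on the deposited normalized counts, log2 after adding 1 or 0.1), other scaling and filters, the authors' factors, the eye pair as a block, other lengths and each library left out. A sum of Gapdh with its copies and a fit without the genes of the lens, RPE, muscle and blood marker lists were added after seeing the data.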

Additional observations from a re-analysis of the deposited data

How the results depend on the processing

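The number of genes past an unadjusted p of 0.05, 281 in edgeR, was 172 with DESeq2, 498 with no count filter, 1261 with the replicate block of the column numbers, 439 with that of the label numbers, and 146 to 946 with each library left out in turn. The number of enzymes called, 0, was 1 (Pfkp) with the block of the column numbers and 0 to 1 with each library left out, where Control 2 gave the 1. The number of pathway genes called, 2, was 6 with the block of the column numbers (Pfkfb2, Eno3, Slc16a8, Pdk1, Pdk4 and Taldo1), 1 with the block of the label numbers, 1 with DESeq2, RLE factors, the authors' factors or limma at either pseudocount, and 0 to 4 with each library left out. It was 0 without Control 3, beside 0.845% of all genes tested, and 4 without Control 1, beside 5.45%. The span of the enzyme levels, 13.2-fold, was 21.7-fold with the longest transcript. The difference in the Hk2 share, 2.51 percentage points, was 0.737 with normalized counts and 0.181 (without FDM 1) to 4.85 (without FDM 3) with each library left out, and that of Aldoc, -0.28, was -1.06 (without FDM 3) to 0.504 (without FDM 1). With each library left out, that of Pfkl, 0.876, was -0.786 (without Control 2) to 1.89 (without Control 1), that of Pfkp, 0.678, -1.19 (without Control 3) to 3.08 (without Control 2), that of Pfkm, -1.55, -2.33 (without FDM 3) to -0.338 (without Control 3), and that of Ldhb, -0.516, -1.52 (without Control 1) to 0.237 (without Control 3). The cause of these shifts was not tested.

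Log2 fold changes close to 0 changed sign, read at 2 decimals. With the block of the column numbers they were -0.08 for Hk1, -0.07 for Aldoa and -0.03 for Pgam1. With the block of the label numbers they were 0.04 for Pfkm, 0.04 for Aldoc, 0.01 for Gapdh, 0.01 for Ldha, 0.05 for Tpi1, 0.04 for Pgk1, 0.01 for Eno1, 0.03 for Eno2 and 0.03 for Ldhb. That of Aldoa was -0.02 with the authors' factors and -0.01 with limma at either pseudocount.

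With each library left out in turn the log2 fold change was -0.07 to 0.14 for Hk1, -0.05 to 0.39 for Hk2, -0.05 to 0.05 for Pfkm, -0.06 to 0.07 for Aldoa, -0.08 to 0.05 for Aldoc, -0.12 to 0.02 for Gapdh and -0.05 to 0.01 for Ldha. It was -0.07 to 0.05 for Tpi1, -0.04 to 0.05 for Pgk1, -0.02 to 0.09 for Pgam1, -0.08 to 0.01 for Eno1, -0.06 to 0.03 for Eno2, -0.14 to 0.04 for Ldhb, -0.10 to 0.01 for Pdha1 and -0.14 to 0.02 for Pdk3.

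Either block left a single residual degree of freedom, and where 1 FDM library remained it was assumed to vary like the control libraries. Pfkl and Pfkp were above 0 under each alternative run, at no less than 0.02 and 0.01. Depth did not limit the enzymes, whose lowest count in any library was 8110, but 5 eyes leave changes inside the intervals given undetected.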
